A study of Caenorhabditis elegans with 2 samples.

Results

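The chromatin regulators described here are 10 Caenorhabditis elegans genes of the synthetic multivulva (synMuv) B group and its H3K9 methylation pathway, taken by name: hpl-1, hpl-2, lin-13, lin-61, lin-65, met-2, set-25, let-418, mep-1 and tam-1. All 10 matched 1 protein-coding gene each, of 19973 on the nuclear chromosomes. The question was where LIN-15B, itself a synMuv B protein, lay around them. Binding was measured by chromatin immunoprecipitation and sequencing in whole L3 larvae of mixed sex from strain OP184, with 2 biological replicates of 1 group and no second condition. All larvae carried the unc-119(tm4063) mutation on chromosome III and the integrated array wgIs184, a transgene for LIN-15B tagged with eGFP, and every comparison is between genes and between replicates. The labels give the fusion as what was precipitated in one place and lin-15B as the antibody's target in another, and do not say whether the antibody was raised against GFP or LIN-15B, so whether the signal is from the tagged protein alone or also from the endogenous one is not known. The promoter of the transgene is not given in the labels either. A low signal in whole larvae cannot tell apart binding in few cells and weak binding in many.

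H3K9 methylation marks silent chromatin, in which a methyltransferase writes the mark, and chromodomain or MBT proteins bind it and keep the underlying genes and repeats repressed. In C. elegans MET-2 and SET-25 write the mark, LIN-65 works with MET-2, and HPL-1, HPL-2 and LIN-61 read it, with the zinc finger protein LIN-13 as a partner of HPL-2. The MEC complex joins the Mi-2 ATPase LET-418 to the zinc finger protein MEP-1 and the deacetylase HDA-1, and is known for keeping germline genes off in somatic cells. TAM-1 is a RING finger protein of the same genetic class. Worms that lack a synMuv B gene together with a synMuv A gene form extra vulvae.

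The sequences below reach 50 bp to either side of 3 of the 6 reproducible summits at these genes, shown because they are the 3 that held GAGAGA. Their signals were 151.4 and 83.18 upstream of lin-13 and 79.6 in the mep-1 promoter. The summit of lin-61, at 82.32, was higher than that of mep-1, held no GAGAGA and is not shown. They are reference sequence of RefSeq's WBcel235 assembly, which is ce11, written on the coding strand of the gene. Capitals mark GAGAGA on either strand, a motif chosen with earlier results of these data known. The windows are chrIII:7710171-7710271 (minus strand), chrIII:7711044-7711144 (minus strand) and chrIV:11524388-11524488 (plus strand).
lin-13, 730 bp upstream: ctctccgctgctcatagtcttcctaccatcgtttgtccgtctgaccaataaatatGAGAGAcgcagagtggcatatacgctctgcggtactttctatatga
lin-13, 1603 bp upstream: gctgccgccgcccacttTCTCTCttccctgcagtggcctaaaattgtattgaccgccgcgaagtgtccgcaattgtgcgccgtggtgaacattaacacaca
mep-1, 204 bp upstream: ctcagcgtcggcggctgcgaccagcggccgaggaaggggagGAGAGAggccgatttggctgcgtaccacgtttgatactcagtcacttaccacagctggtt

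Each of these 3 windows held GAGAGA once, and the 3 other summit windows at the genes (1 at lin-61 and 2 farther upstream of mep-1) held none, which makes 3 of 6. Among all 3331 summit windows of the reproducible list, 895 (26.9%) held it. The CHR element, searched as TTTGAA or TTCGAA on both strands, was found at 1 of the 6, that of lin-61, and in 24.6% of all windows. An E2F site (TTTCCCGC, TTTGGCGC, TTTGCCGC or TTTCGCGC) was in none of the 6 and in 5.67% of all windows, and GCGCGC was in none of the 6 and in 10.1%. These are matches of letters, not shown to be sites. The GC content was 46.5% and 55.4% at the lin-13 windows in the order printed, 50.5% at lin-61, and 61.4%, 56.4% and 39.6% at mep-1 from the nearest summit to the farthest. The median over all windows was 47.5%, with quartiles of 42.6% and 52.5%, so 3 of the 6 were above the upper quartile and 1, the farthest at mep-1, was below the lower one.

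Peaks were read from 4 deposited lists, and the signal of a peak is the authors' own value in units that no source used here states, so it was read only within its list. The list thresholded by the irreproducible discovery rate (IDR), called the reproducible list here, held 3331 peaks with signals from 22.65 to 1188.7 (median 53.13). The pooled list, which also holds background entries, had 30000 with a median of 5.56, and the lists of replicates 1 and 2 had 24760 and 27552 with medians of 3.51 and 3.69. The depth of sequencing is unknown. Bound genes are those with a summit of the reproducible list from 500 bp upstream to 200 bp downstream of an annotated 5′ end, the promoter window.

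LIN-15B was called at the promoters of 2 of the 10 genes, lin-61 and mep-1, where 13.4% of all protein-coding genes were bound. Within 2 kb upstream of the gene, 3 of the 10 had a summit, lin-13 being the third, against 18.6% of all genes. None of the 10 had a summit in the gene body, where 3.6% of all genes had one, although the members were longer (median 5024.5 bp, 1655 to 11072) than protein-coding genes at large (median 2027 bp). From 2 kb upstream to the 3′ end the count was thus 3 of 10, against 21.3% of all genes. With so few genes these counts lie near the background and are given as a description. The map of summits around the genes shows the 3 genes with reproducible summits and the weak entries at the others.

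**Figure D1:**
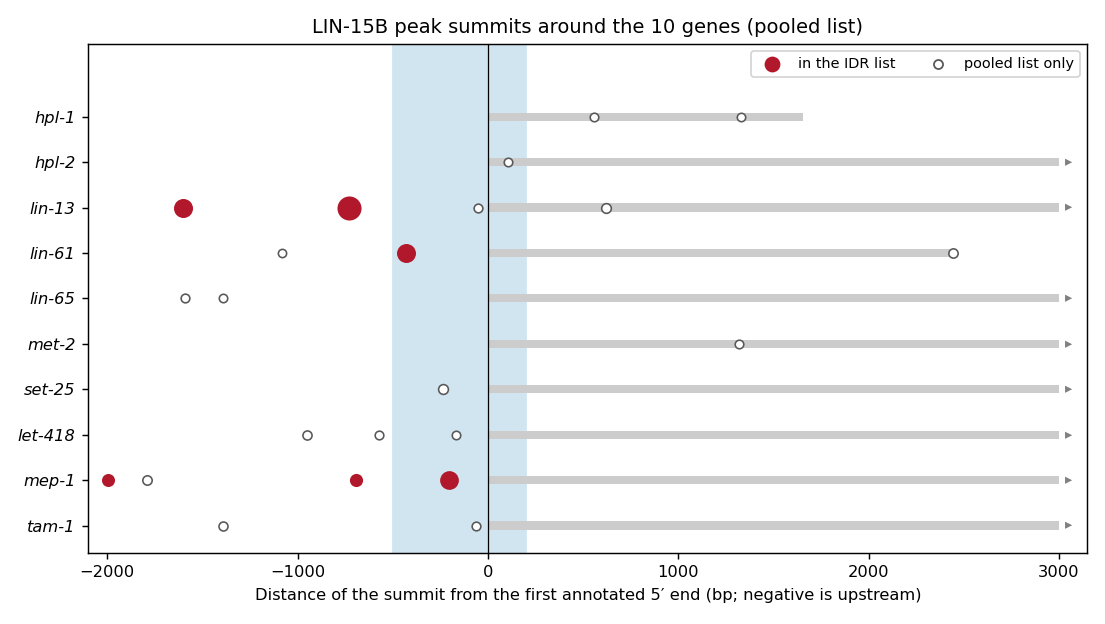
Distance in bp of pooled-list summits from the first annotated 5′ end of the 10 genes, with negative values upstream. Filled red circles are summits that are also in the reproducible (IDR) list and open circles the others, with circle area rising with signal. The promoter window is shaded. Grey bars are gene bodies, which an arrowhead marks as continuing where they run past the axis. Summits past the right end of the axis, at lin-65, set-25 and mep-1, are not drawn. Of the 10 genes, 3 (lin-13, lin-61 and mep-1) have red circles, all of them upstream, and the lin-13 ones lie outside the shaded window.

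Among the readers of H3K9 methylation and their partners, lin-13 had the highest signal of the 10 genes, but outside the promoter window. The gene (WBGene00003002) lies at chrIII:7700338-7709491 on the minus strand. Its first peak, chrIII:7710126-7710350, had a summit 730 bp upstream of the 5′ end and a pooled signal of 151.4, rank 462 of 3331. In replicate 1 the entry there had a signal of 63.52 (rank 516) with its summit 29 bp away, and in replicate 2 it had 89.2 (rank 414) with its summit at the same base. The second, chrIII:7710939-7711248, had its summit 1603 bp upstream and a pooled signal of 83.18 (rank 1010), with 31.92 (rank 1233) in replicate 1 and 47.91 (rank 954) in replicate 2. Both peaks therefore stood among the first 3331 entries of each replicate.

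Neither lin-13 peak is shared with a neighbouring promoter window. The nearest annotated coding 5′ end to the first is that of lin-13 itself. For the second it is C03B8.3, at 1215 bp, closer than lin-13. These genes diverge from a gap of 2817 bp that held 3 reproducible summits, the last one (signal 73.95, rank 1156) 2641 bp from lin-13 and in the promoter window of C03B8.3. Genes with 2 or more reproducible summits within 2 kb upstream made up 1.21% of all protein-coding genes, and lin-13 and mep-1 were such genes. In the lin-13 promoter window itself the pooled list held only an entry of 5.85 (rank 13835), 54 bp upstream. Replicate 1 had an entry of 3.35 (rank 13197), 139 bp upstream, and replicate 2 had none in the window. A further pooled entry of 11.88 (rank 5630) lay 623 bp inside the gene, with 6.21 in replicate 1 and 5.05 in replicate 2.

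lin-61, which encodes an MBT repeat protein that binds methylated H3K9, was bound, but its peak cannot be assigned to it alone. The gene (WBGene00003041) lies at chrI:7248827-7251282 on the minus strand. The peak, chrI:7251557-7251866, had a pooled signal of 82.32 (rank 1025), 44.08 in replicate 1 (rank 856) and 36.31 in replicate 2 (rank 1297). Its replicate summits lay 2 and 9 bp from the pooled one. It stood in the 658 bp between lin-61 and the divergent bub-1, a kinase of the spindle checkpoint, 430 bp upstream of lin-61 and 229 bp upstream of bub-1, so it was nearer to bub-1 and inside both promoter windows. Sharing is common: for 46.2% of the 2683 bound genes the highest promoter summit was also in the window of another protein-coding gene.

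The HP1 homologues had no reproducible summit. At hpl-2 (WBGene00001996, chrIII:10752195-10755530, minus strand) the promoter window held a pooled entry of 4.78 (rank 18654 of 30000), 5.89 in replicate 1 (rank 5914) and 2.31 in replicate 2 (rank 24138). The replicate summits were on different sides of the 5′ end, 86 bp upstream in replicate 1 and 133 bp downstream in replicate 2. At hpl-1 (WBGene00001995, chrX:13245390-13247044, plus strand) no list had a summit in the promoter window or within 2 kb upstream. The pooled entries in its body were weak, the higher at 4.97 (rank 17643), 557 bp inside the gene. Replicate 1 had 5.24 (rank 6897) at the same base. Replicate 2 had its only entry, of 4.54 (rank 10238), 1371 bp inside the gene, so the replicates did not mark the same place.

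The H3K9 methyltransferase genes and lin-65 had no reproducible summit either. At set-25 (WBGene00012802, chrIII:13283824-13293090, minus strand) the promoter window held the highest pooled entry among the promoter windows of the unbound genes. Its pooled signal was 12.8 (rank 5262), below the lowest signal of the reproducible list, 22.65. Replicate 1 had 7.22 (rank 4690) with its summit 230 bp upstream, and replicate 2 had 4.24 (rank 11268) with its summit 191 bp upstream. The entry was thus present in both replicates, higher in rank in replicate 1, and outside the first 3331 of either. Its deposited −log10 q was 2.85 in the pooled list, where the ceiling reached by every reproducible peak was 3.96.

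met-2 (WBGene00019883, chrIII:8375300-8380848, plus strand) had no entry of any list in the promoter window or within 2 kb upstream. Its highest pooled entry, 5.11 (rank 16954), lay 1317 bp inside the gene. For lin-65 (WBGene00022149, chrI:1755329-1766400, plus strand), which has 3 annotated 5′ ends, no list had a summit in a promoter window, and the highest pooled entry within 2 kb upstream was 5.82 (rank 13980), 1590 bp upstream. Replicate 1 had an entry of 4.05 at 1584 bp upstream. Within the 2 kb upstream, replicate 2 had only one of 2.08 (rank 26630 of 27552) at 1397 bp, close to the end of its list. Near it lay a second pooled entry, of 4.24 at 1391 bp. In the gene body the pooled list had an entry of 5.18 (rank 16600) and replicate 2 one of 3.01 (rank 18047). These were 6974 and 6963 bp from the first 5′ end, and replicate 1 had none in the body.

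**Figure D2:**
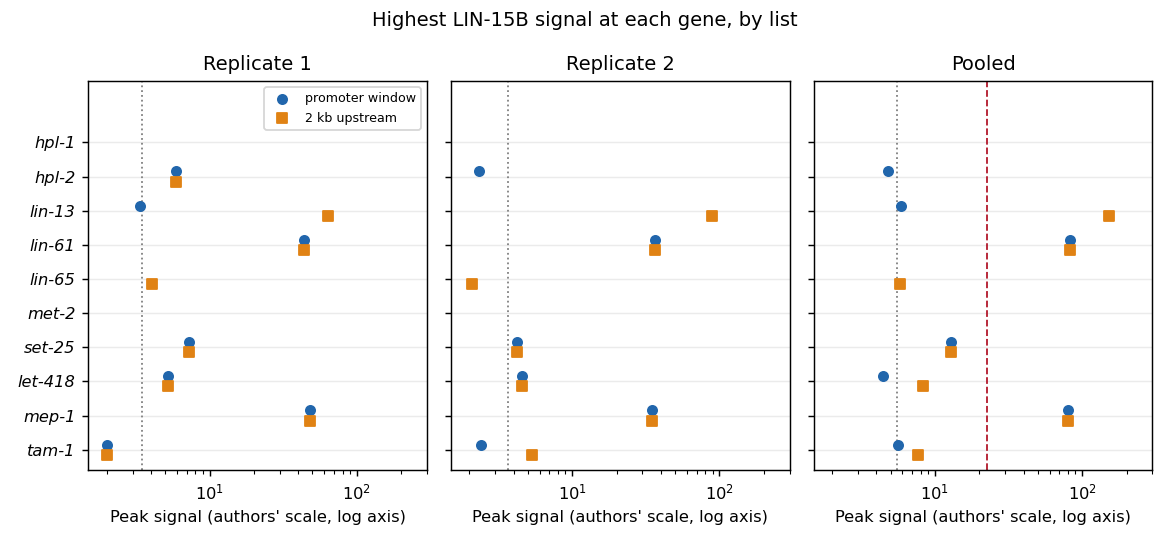
Highest peak signal (log axis, the authors' scale) of the 10 genes in replicate 1, replicate 2 and the pooled list, as blue circles for the promoter window and orange squares for the 2 kb upstream, with no symbol where a list has no entry. Dotted lines are the median of each list and the dashed red line is the lowest signal of the reproducible list, 22.65, which applies to the pooled panel only, where both symbols of lin-61 and mep-1 lie to its right. For lin-13 the upstream square (151.4) lies to its right and the promoter circle (5.85) to its left, and the set-25 circle, at 12.8, is the nearest on its left.

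mep-1 was the bound gene of the MEC complex. The gene (WBGene00003218) lies at chrIV:11524642-11527954 on the plus strand. Its promoter peak, chrIV:11524405-11524515, had its summit 204 bp upstream and a pooled signal of 79.6 (rank 1073). Replicate 1 had 48.49 (rank 769) at the same base and replicate 2 had 34.54 (rank 1387) at 26 bp from it. No other protein-coding promoter window holds this summit. It does lie inside the annotated non-coding genes M04B2.11 and M04B2.13, which overlap each other on opposite strands. It is 85 bp from the 5′ end of M04B2.11, so it is shared with at least that non-coding promoter. Among the 2683 bound genes the median of the highest promoter signal was 70.55 with quartiles of 41.23 and 137.1, so mep-1 and lin-61 were both in the middle of that range.

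Farther upstream of mep-1 there were weaker reproducible summits. One, 693 bp upstream (chrIV:11523794-11524103), had a pooled signal of 25.21 (rank 3062 of 3331). It rested mainly on replicate 2, with 20.89 (rank 2234) there against 5.76 (rank 6070) in replicate 1. It lay in the non-coding genes M04B2.10 and M04B2.12. Its summit was 70 bp from the 5′ end of M04B2.10, so it is shared with that non-coding promoter, and no protein-coding promoter window holds it. Another was 1997 bp upstream (chrIV:11522490-11522799), just inside the 2 kb limit, with 24.19 (rank 3153) in the pooled list and 17.96 (rank 2533) in replicate 2. Replicate 1 had no summit inside that peak, and its nearest, of 11.73 (rank 3068), was 168 bp away. With these, mep-1 had 3 reproducible summits within 2 kb upstream, as 0.0601% of all genes (12 of 19973) did, 2 of them near the lower end of the list. The annotated 5′ end nearest to the farthest one among coding genes was that of gfl-1, 1355 bp away. Among all genes it was that of M04B2.10, 1234 bp away, so no promoter window holds the farthest summit.

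**Figure D3:**
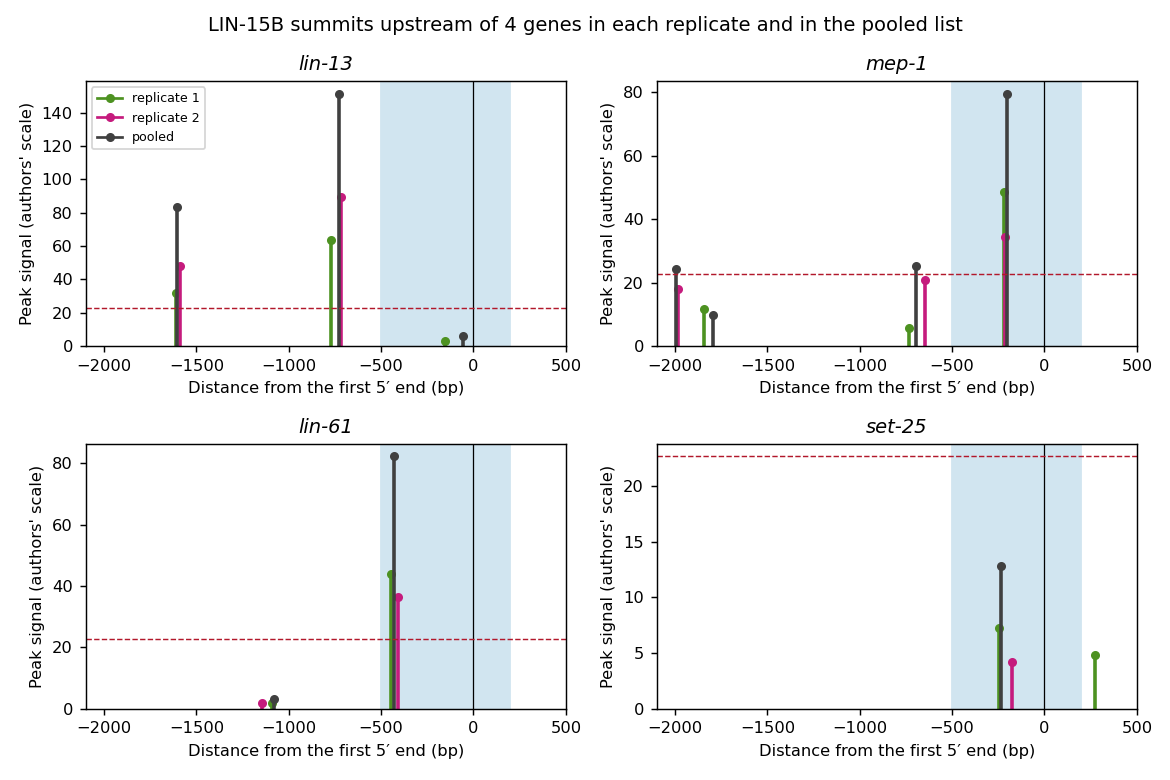
Peak signal on the authors' scale (vertical axis, linear, with its own range in each panel) against distance from the first 5′ end in bp at lin-13, mep-1, lin-61 and set-25, for replicate 1 (green), replicate 2 (magenta) and the pooled list (dark grey), with replicate stems drawn slightly to the side. The shaded band is the promoter window and the dashed line the lowest reproducible signal, 22.65, which applies to pooled stems, and the lin-13 summits at 730 and 1603 bp stand outside the band in both replicates.

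The gene for the ATPase of the complex, let-418 (WBGene00002637, chrV:5826833-5832831, plus strand), was not bound. Its promoter window held a pooled entry of 4.44 (rank 20709), 5.24 in replicate 1 (rank 6898) and 4.57 in replicate 2 (rank 10152). The replicate summits were 113 and 491 bp upstream, so within the window the replicates did not mark the same place. Just past the window edge, replicate 1 also had an entry of 4.85 at 579 bp upstream, nearer to that of replicate 2. The highest pooled entry within 2 kb upstream was 8.31 (rank 8375), 952 bp upstream. Beside it replicate 1 had 2.10 at 1002 bp and replicate 2 had 3.68 at 970 bp. tam-1 (WBGene00006523, chrV:4958603-4963102, minus strand) had 5.62 in the pooled list (rank 14768), 2.02 in replicate 1 (rank 24474 of 24760) and 2.39 in replicate 2 (rank 23390), all within 100 bp of the 5′ end. In replicate 1 this was close to the lowest signal of the list, 2.001, and in replicate 2 it was below the list's median. Farther upstream, tam-1 had a higher pooled entry of 7.66 (rank 9300) at 1394 bp and one of 5.29 (rank 8252) in replicate 2 at 1420 bp, with no replicate 1 entry beside them.

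Counting entries of any strength, 7 of the 10 genes had a pooled-list summit in the promoter window, against 36.8% of all protein-coding genes. The members were hpl-2, lin-13, lin-61, set-25, let-418, mep-1 and tam-1. In the list of replicate 1 the same 7 genes had one (32.5% of all genes), in that of replicate 2 the count was 6, without lin-13 (35% of all genes), and in both it was 6 (22.8%). The count in both asked only for an entry anywhere in the window, not at the same place. At hpl-2 the replicate summits were 86 bp upstream and 133 bp downstream, and at let-418 they were 113 and 491 bp upstream. At lin-61, set-25, mep-1 and tam-1 they were closer together, with tam-1 at signals of only 2.02 and 2.39. Apart from lin-61 and mep-1 these entries had pooled signals of 4.44 to 12.8, and those of hpl-2 and let-418 were below the list's median. From 2 kb upstream to the 3′ end all 10 genes had a pooled entry, against 67.9% of all genes. The median of the highest pooled signal was 5.20 in the promoter window over the 10 genes and 0 over all genes, with genes without an entry set to 0. From 2 kb upstream to the 3′ end it was 7.99 and 5.23. Longer genes can hold more entries, and the part of gene length in the last values was not tested.

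The nearest reproducible summit to the 5′ end was 204 bp away at mep-1, 430 bp at lin-61 and 730 bp at lin-13. It was 3617 bp away at set-25, 3735 bp at hpl-2, 4174 bp at lin-65 and 8231 bp at hpl-1. It was 16904 bp away at met-2, 19208 bp at let-418 and 86485 bp at tam-1, the farthest. The median was 3954.5 bp over the 10 genes and 10542 bp over all protein-coding genes. For all 7 genes with no reproducible summit within 2 kb, the nearest one lay in the promoter window of another gene, such as npp-18, a nucleoporin gene, for set-25 (signal 176.6), and tasp-1 for hpl-2 (975.8).

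The calls depended on how far the promoter window reached. With 1000 bp upstream, lin-13 joined lin-61 and mep-1, which made 3 of 10 against 16.2% of all genes. With 200 bp upstream none of the 10 was bound, against 7.59% of all genes, since the lin-61 and mep-1 summits lay 430 and 204 bp upstream, the latter just past the limit. Trans-splicing, common in C. elegans, removes the first part of a transcript, and transcription may then start some way upstream of the annotated 5′ end. Whether this holds for these genes was not tested. The grid of calls by setting shows that the other settings gave lin-61 and mep-1 again.

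**Figure D4:**
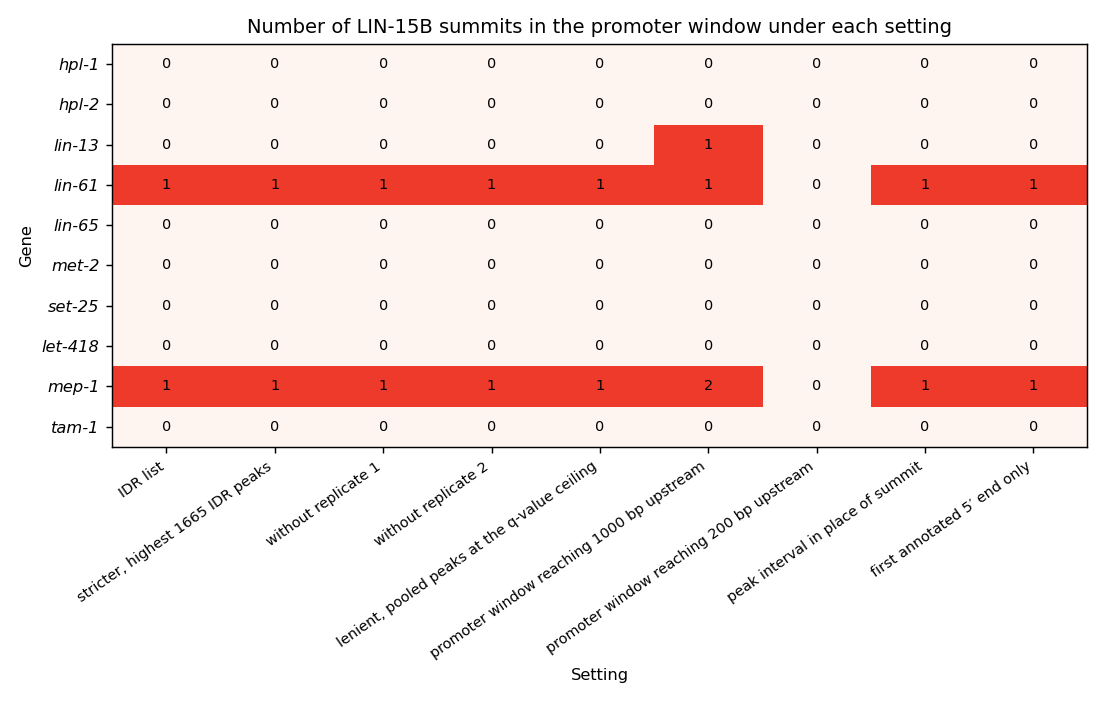
Number of summits in the promoter window (numbers in the cells, red where at least 1) for the 10 genes (rows) under each setting (columns), which change the peak list, the window or the 5′ ends used. lin-61 and mep-1 are red in every column except the window reaching 200 bp upstream, and lin-13 is red only with the window reaching 1000 bp upstream.

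Genes that work beside the 10 were bound to different extents, in lists chosen with earlier results known. Of the 8 DREAM core genes, which encode the repressor complex around the retinoblastoma homologue LIN-35, 6 were bound (lin-54, 840.2; lin-9, 529.9; lin-35, 321.8; lin-53, 303.7; efl-1, 257.4; dpl-1, 68.92), and the peaks of lin-54, lin-35 and lin-53 were shared with another gene. Of these, 5 had higher signals than any peak at the 10 genes. Of 9 genes for H3K9 methylation and the nuclear periphery 4 were bound, namely lem-2 (150.2), baf-1 (108.3) and emr-1 (107.4), which encode proteins of the nuclear envelope and its chromatin contact, and the chromodomain gene cec-3 (50.81, shared with T09A5.15). set-32, arle-14, cec-4, cec-6 and lmn-1 were not bound. Of 6 genes for NuRD subunits and MEC partners 1 was bound, dcp-66 (23.74, rank 3208), while hda-1, chd-3, lin-40, egl-27 and rba-1 were not. The bound gene lin-53 was counted with the DREAM core alone, so these counts depend on the list in which a gene was placed. Of 5 genes known as synMuv suppressors 4 were bound, namely mrg-1 (138.8, shared with spcs-2), isw-1 (62.26), mes-4 (40.57) and gfl-1 (31.53, shared with M04B2.4), and zfp-1 was not. The background for these counts is again the 13.4% of all genes, and the differences between the lists were not tested. Unbound genes can still have a summit farther upstream. Within 2 kb upstream, a reproducible summit was found at 8 of the 8 DREAM core genes and 5 of the 9 H3K9 and periphery genes. The same held for 3 of the 6 NuRD and MEC genes and 4 of the 5 suppressors, against 18.6% of all genes.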

How the data were processed

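LIN-15B was profiled in 2 biological replicates of L3 larvae that carry a LIN-15B-eGFP transgene, with an antibody not described further in the labels than by its target, with fragments selected at 150 to 350 bp, per the labels. The deposited text records name peak lists of single replicates, of the pooled replicates and after IDR thresholding, on ce10 and on ce11. No source used here gives the aligner, the peak caller or the threshold on the IDR. Each peak's signal and its −log10 q-value are the authors' deposited values, neither of them recomputed. The q-value was at its ceiling of 3.96 in all 3331 reproducible peaks. Depth is unknown. Only the ce11 lists were used, with Ensembl release 115 genes on WBcel235 (the same assembly), 1-based positions, and the RefSeq genome for sequence. Where the commonest width applied (310 bp), a summit is the middle of a fixed interval.

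Summits were counted in promoter windows of protein-coding transcripts, gene bodies and the 2000 bp upstream. Motifs were searched on both strands within 50 bp of a summit. A replicate value at a reproducible peak is the highest entry whose summit lay inside it. With 1 group, and members and lists chosen with earlier results of these data known, no test was made. The naming rule took all 10 members, genes that share their summits, genes whose 5′ end is nearest to a summit of theirs and the bound genes of 4 further lists. Names outside it were chosen after their values were seen: npp-18, tasp-1, the non-coding genes around mep-1 and the unbound genes of the 4 lists. The same holds for T09A5.15, spcs-2 and M04B2.4, which share peaks of bound genes of the lists, and for rnf-113 and lmbr-1 in the closing section. The alternatives were other windows, peak lists and 5′ ends. The code was checked on planted summits. Python 3.11.15 and matplotlib 3.10.9 were used.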

Additional observations from a re-analysis of the deposited data

How the results depend on the processing

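The count of bound genes (2 of 10) was the same with the 1665 highest reproducible peaks, with the 3331 highest peaks of either replicate alone, with 4585 pooled peaks at the q-value ceiling, with peak intervals and with the first 5′ end only. It was 3 with a window of 1000 bp upstream. With a window of 200 bp upstream it was 0, and so was the count of bound genes with a shared peak, which was 1 otherwise. That count was 2 when non-coding genes were taken as neighbours, since mep-1 then shared its peak. The count of genes with a pooled-list summit in the promoter window fell from 7 to 3 (lin-61, set-25 and mep-1) among the 10000 highest entries, and to 4 (hpl-2, lin-13, let-418 and tam-1) with 200 bp upstream. Counts for gene bodies (0) and for the 2 kb upstream (3) were the same under every alternative run for them, including 1000 and 3000 bp upstream, which were chosen after seeing the data. Of the single genes, hpl-1, hpl-2, lin-65, met-2, set-25, let-418 and tam-1 were unbound in all 8 alternatives. Depth is unknown, so a peak missing from a list is not shown to be absent.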

Other observations

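The space upstream of mep-1 reached to gfl-1, which encodes a YEATS domain protein known as a synMuv suppressor and lies on the same strand 2427 bp away. That gap held 4 reproducible summits, the last of them 2222 bp upstream of mep-1 and 205 bp past the annotated end of gfl-1, with a signal of 62.84 (rank 1385), the second highest of the 4. It fell outside the 2 kb counted for mep-1. gfl-1 was itself bound, with a signal of 31.53 (rank 2579) 119 bp upstream, a peak also in the promoter window of M04B2.4.

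Of the unbound genes, hpl-2 and met-2 lay closest behind a neighbour on the same strand, 93 bp from rnf-113 and 127 bp from lmbr-1. Neither rnf-113 nor lmbr-1 was bound. let-418 and tam-1 had the longest gaps to the next protein-coding gene on their 5′ side, 13695 and 8667 bp. Those gaps held no reproducible summit, and held 5 and 6 pooled entries.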
